A study of Mus musculus with 5 samples.

Results

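Macrophages are tissue phagocytes that engulf dying cells, microbes and debris, digest them in lysosomes and bathe their surroundings in complement and lipid-carrying proteins. They live on signals through the receptor for colony stimulating factor 1, and in the gut they form one of the larger pools of such cells. The 10 genes described here are used to recognise them: C1qa, C1qb and C1qc, the 3 chains of the complement starter C1q; Apoe, a lipid carrier; Mpeg1, which encodes the pore-forming perforin-2; Adgre1, which encodes the surface antigen F4/80; Csf1r; the lysozyme gene Lyz2; Cd68, a lysosomal membrane glycoprotein; and Mertk, a receptor for dying cells. All 10 were found by symbol among the 27179 genes of the count table. They were chosen by their counts in these same libraries, high in CD4 T and low in ILC3, so the levels of ILC3 against CD4 T are given for them as a description with no test.

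The libraries came from sorted cells of wild type C57BL/6 mice. There were 3 libraries of group 3 innate lymphoid cells (ILC3), gated as CD45-positive, CD3-negative, CD127-positive and positive for a green fluorescent reporter. The other 2 were labelled CD4 T and gated as CD45+CD3+CD4+. The design names 3 mice and the labels tie no library to a mouse, so the spread given here is between libraries and may in part be technical. The title of the series places the work in the intestine; tissue, age and sex are not in the labels used here. Neither gate used the product of any of the 10 genes.

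Depth ran from 15123715 to 25956023 counts per library. Levels are counts per 1000000 counts (CPM) after scaling each library with TMM (trimmed mean of M values). No count in a library allows up to 3 counts, or 0.116 to 0.198 CPM before that scaling, and such floors cover counting error only. Cd4 was 5.05 ± 1.94 CPM over the 3 ILC3 libraries and 116 ± 36.7 CPM over the CD4 T pair (mean ± SD, as throughout). Cd8a, which encodes a chain of CD8 and is also known from some dendritic cells, was above Cd4 in both CD4 T libraries, at 245 and 189 CPM against 142 and 89.9 CPM, and had 1, 0 and 1 counts in ILC3. The levels of Cd8a thus do not follow the CD4 T label, and these libraries are called CD4 T by that label. Among the CD3 chain genes Cd3e was 65.2, 69.8 and 20.5 CPM in ILC3 replicates 1 to 3 and 54.8 and 200.3 CPM in CD4 T replicates 1 and 2, so the groups overlapped. Cd3d did not overlap, at 110, 146 and 63.7 CPM against 460 and 778 CPM. In bulk libraries, fewer cells of a type and less RNA per cell cannot be told apart.

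The 10 genes lay almost wholly on the CD4 T side. Their summed level was 258, 328 and 330 CPM in ILC3 replicates 1 to 3 and 4918 and 5734 CPM in CD4 T replicates 1 and 2, or 305 ± 41.1 CPM (SD, n = 3) against 5326 ± 577 CPM in CD4 T (SD, n = 2). The libraries labelled CD4 T thus held 17.4 times the ILC3 level. As a share of all counts the genes made up 0.0276%, 0.0244% and 0.027% of the ILC3 libraries and 0.616% and 0.701% of the CD4 T libraries. For 9 of the 10 genes every ILC3 library lay below both CD4 T libraries, and Mertk, with no count in ILC3, had 2 counts in CD4 T replicate 1, under the floor of 3. Among all 12747 genes tested, 29.6% had that order and 25.5% the opposite one, and since the members were chosen in view of it nothing is read from their count.

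**Figure D1:**
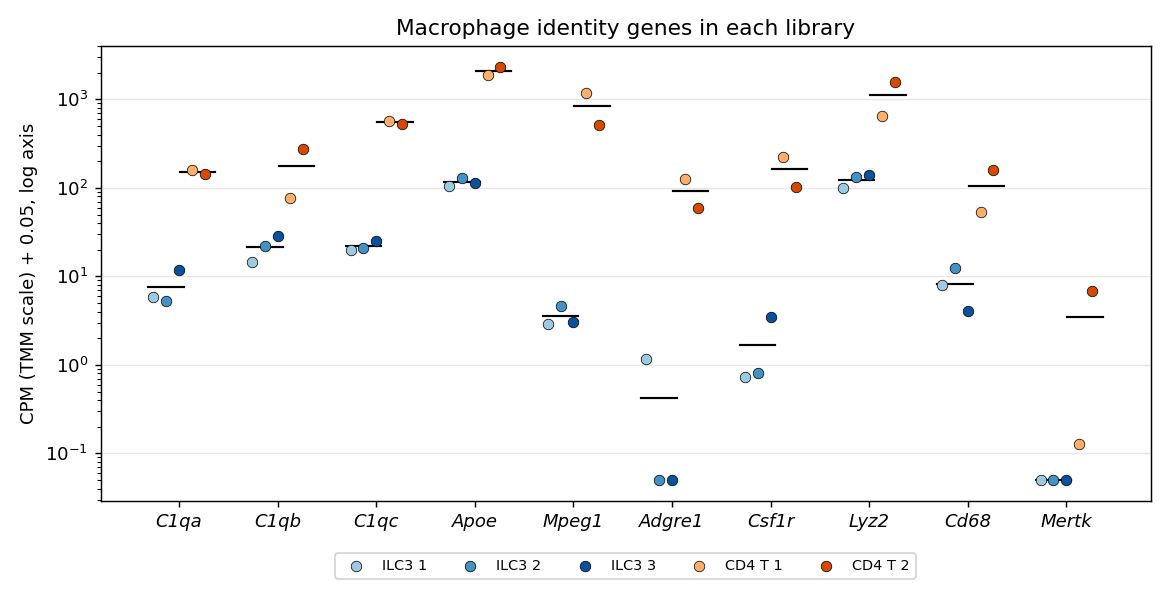
CPM plus 0.05 on a log axis for the 10 genes, with a point for each of the 3 ILC3 libraries (blue) and the 2 CD4 T libraries (orange) with group means as bars. Both CD4 T libraries sit above all ILC3 libraries for the 9 genes other than Mertk, which has 2 counts in CD4 T replicate 1. Adgre1 had counts in ILC3 replicate 1 but none in replicates 2 and 3, and Mertk had none in ILC3.

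The size of the difference was not the same for all genes. Against CD4 T, the ILC3 mean was 12.2% for C1qb, 11.04% for Lyz2, 7.65% for Cd68, 5.53% for Apoe, 4.99% for C1qa and 3.97% for C1qc. It was 0.996% for Csf1r, 0.412% for Mpeg1 and 0.399% for Adgre1. The remainder in ILC3 was thus larger for the genes of secreted products and Cd68, and smaller for Csf1r, Mpeg1 and Adgre1. This grouping was made after the values were seen, and the Adgre1 value rests on 31 counts in ILC3 replicate 1. Lyz2 and Apoe alone made up 38.6% to 42.5% and 34.6% to 41.0% of the members' summed level in the ILC3 libraries, and without both the sum was 64.7 ± 11.6 CPM in ILC3, against 2092 ± 420 CPM in CD4 T, 32.3 times as much.

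C1q is the recognition part of the first complement component: it binds antibody complexes, dying cells and bacterial surfaces and switches on the classical pathway. Its 3 chains are made in equal number for each assembled molecule, and macrophages are their main source. The genes sit side by side on the minus strand of chromosome 4 in GRCm38, the assembly that mm10 names: C1qb (NCBI gene 12260, 136880126 to 136886200), C1qc (12262, 136889801 to 136892936) and C1qa (12259, 136895916 to 136898844), all within 18719 bases. The 250 bases before the RefSeq start sites of C1qb and C1qc are shown because these neighbours went apart between the CD4 T libraries. Capitals mark ACTTCCT, the reverse complement of AGGAAGT, a core bound by ETS factors such as PU.1. They are the 5′ to 3′ strand of each gene, at chr4:136886201-136886450 and chr4:136892915-136893164 (GRCm38.p6, minus strand).
C1qb: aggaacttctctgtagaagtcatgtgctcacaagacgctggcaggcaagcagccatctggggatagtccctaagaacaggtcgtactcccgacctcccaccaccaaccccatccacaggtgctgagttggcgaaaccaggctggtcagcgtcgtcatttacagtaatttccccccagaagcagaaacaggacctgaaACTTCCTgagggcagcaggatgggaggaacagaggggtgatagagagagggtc
C1qc: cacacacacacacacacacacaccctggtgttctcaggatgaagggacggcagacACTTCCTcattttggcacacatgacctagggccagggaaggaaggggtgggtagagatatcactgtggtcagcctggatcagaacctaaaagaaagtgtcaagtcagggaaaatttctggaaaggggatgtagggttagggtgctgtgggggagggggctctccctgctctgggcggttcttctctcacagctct
The match begins 53 bases before the start site in C1qb and 195 bases before it in C1qc. On either strand AGGAAGT occurred in 7.69% of the 32851 upstream windows of this length in the RefSeq table. Of the 7 members with such a window, C1qb, C1qc and Lyz2 held it. The shorter GAGGAA, which can overlap it, was in 23.3% of all windows and in those of Apoe, C1qb, C1qc and Cd68. The AP-1 letters TGANTCA were in 6.75% of windows and the E-box CAGCTG in 13.001%, each with Cd68 as the member that held it. The C/EBP letters TTGCGCAA were in 0.164% of windows and in no member's. AGGAAGT was chosen after the sequences were seen, and a match is not a measured binding site.

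C1qa was 5.84, 5.24 and 11.7 CPM in ILC3 replicates 1 to 3 and 160 and 144 CPM in CD4 T replicates 1 and 2, a 20.04-fold difference of the means. C1qc was 19.7, 20.8 and 25.2 CPM against 577 and 526 CPM, a 25.2-fold difference. These chains differed little between the CD4 T libraries, with replicate 2 at 0.904 and 0.913 of replicate 1. C1qb was 14.3, 22.1 and 28.4 CPM in ILC3, against 77.0 and 278 CPM in CD4 T, so here CD4 T replicate 2 was 3.61 times replicate 1. The mean of C1qb was 8.21-fold higher in CD4 T, and the lowest CD4 T library was 2.71 times the highest ILC3 library, the smallest such gap among the members with ILC3 counts. Its log2 (ILC3 over CD4 T) was -3.04, or -3.68 without CD4 T replicate 1 and -1.82 without replicate 2.

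Per kilobase of annotated exon the make-up of the chain transcripts differed from library to library. C1qb was 45.4%, 56.2% and 51.8% of the chain level in ILC3 replicates 1 to 3, but 13.5% in CD4 T replicate 1 and 38.3% in replicate 2. The ratio of C1qb to C1qa per length, which rests on 1 annotated transcript for each gene, was 2.35, 4.02 and 2.33 in ILC3 against 0.461 and 1.84 in CD4 T. It was thus above 1 in each library except CD4 T replicate 1, and the groups did not overlap. C1qc to C1qa was 1.82, 2.13 and 1.16 in ILC3 against 1.95 and 1.96 in CD4 T, where the groups overlapped. The share of C1qc depends on its length: with the longest transcript (1203 bases) in place of all exons (1931 bases), C1qb was 43.3% and C1qc 41.0% of the mean make-up in ILC3, and in ILC3 replicate 1 C1qc (46.6%) then exceeded C1qb (37.4%).

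**Figure D2:**
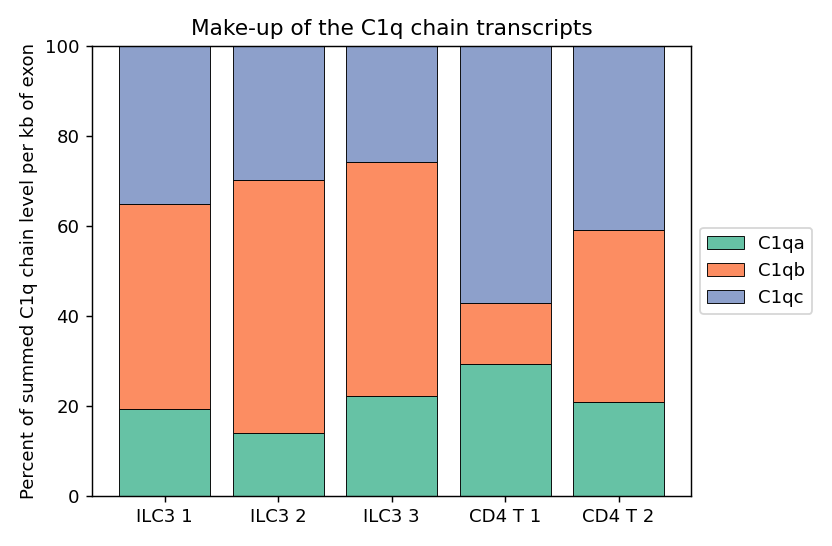
Share of C1qa, C1qb and C1qc in their summed level per kilobase of exon, as stacked bars from 0 to 100% for each library. The C1qb part runs from 45.4% to 56.2% in ILC3 and is 13.5% and 38.3% in CD4 T replicates 1 and 2.

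C1q works with the proteases C1r and C1s, and further components, receptors and regulators carry the cascade on. Of 19 other genes of complement, 16 passed the filter on low counts. Among these, 5 were lower in ILC3, 1 was higher and 10 did not pass the test (edgeR quasi-likelihood test, Benjamini-Hochberg adjusted p under 0.05), where 7.21% of all tested genes were called lower and 6.46% higher. The median log2 fold change of ILC3 over CD4 T was -1.83, beside -0.10 over all genes tested. The anaphylatoxin receptor gene C3ar1 was lower by a log2 of -4.39 (SE 0.566, edgeR adjusted p = 0.00766) and Cfp, which encodes properdin, by -4.88 (SE 0.841, edgeR adjusted p = 0.0163). Cr1l, a complement regulator known as Crry, was higher in ILC3, at 161 ± 9.65 against 64.5 ± 20.1 CPM (log2 1.32, SE 0.311, edgeR adjusted p = 0.0397). C1ra, a gene for the C1r partner of C1q, had 1, 16 and 1 counts in ILC3 against 1 and 0 counts in CD4 T, so the CD4 T libraries rich in C1q chains held next to no C1ra.

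The complement calls were uneven between libraries. The number lower was 3 without ILC3 replicate 1, and 2 with ILC3 replicate 2 or CD4 T replicate 1 left out. Cfp lost its call without ILC3 replicate 2 (edgeR adjusted p = 0.0605) and CD4 T replicate 1 (0.0752), and its log2 was -5.57 without ILC3 replicate 1. Cr1l lost its call without ILC3 replicates 1, 2 and 3 (0.0956, 0.103 and 0.0967), without CD4 T replicate 1 (0.0809) and with library size alone (0.171). The log2 of C3ar1 was -3.40 without CD4 T replicate 1.

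Apoe (NCBI gene 11816, chromosome 7, 19696244 to 19701310, minus strand) encodes apolipoprotein E, which carries cholesterol out of macrophages. Per length it had the highest mean of the members in CD4 T, at 987 ± 158 CPM per kilobase, although Lyz2 was higher in CD4 T replicate 2 (1208 against 1099), and the second highest in ILC3, at 54.6 ± 5.78. Its level was 106, 130 and 114 CPM in ILC3 replicates 1 to 3 and 1872 and 2350 CPM in CD4 T replicates 1 and 2. The means differed 18.1-fold. Within each group Apoe was among the steadiest members: the highest ILC3 library was 1.23 times the lowest, and CD4 T replicate 2 was 1.26 times replicate 1.

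Among 18 genes that work with apolipoproteins or move lipids out of cells, 15 passed the filter, 7 were lower in ILC3, 0 were higher at an adjusted p under 0.05 and 8 were not called (median log2 -2.21). Apoc2, a lipase activator encoded near Apoe, was 0.846 ± 0.299 CPM in ILC3 against 18.7 ± 0.916 CPM (log2 -4.45, SE 0.647, edgeR adjusted p = 0.0108). Lrp8, a receptor for Apoe, was 0.535 ± 0.504 and 197 ± 56.1 CPM (log2 -8.42, SE 0.765, edgeR adjusted p = 0.00263). The lipoprotein receptor gene Scarb1 had no count in ILC3 and was 9.30 and 8.81 CPM in CD4 T, at least 183-fold lower in ILC3 over the group (edgeR adjusted p = 0.0185). The cholesterol exporter gene Abca1 was lower by a log2 of -2.91 (SE 0.601, edgeR adjusted p = 0.0276). Abca1 lost its call without each of the ILC3 replicates (0.0852, 0.0544 and 0.0503) and without CD4 T replicate 1 (log2 -2.23, 0.142), and Scarb1 without CD4 T replicate 1 (0.0963) or 2 (0.0523). The number lower was 3, 4 and 3 without ILC3 replicates 1, 2 and 3, and 2 and 4 without CD4 T replicates 1 and 2. Without ILC3 replicate 1 the log2 of Lrp8 was -9.62.

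Csf1r encodes the tyrosine kinase receptor on which most macrophages depend, and Adgre1 encodes F4/80, an adhesion receptor long used to stain mouse macrophages. Csf1r (NCBI gene 12978) was 0.684, 0.767 and 3.38 CPM in ILC3 replicates 1 to 3 and 222 and 102 CPM in CD4 T replicates 1 and 2, a 100.4-fold difference of the means. Of its 5774 exon bases, 873 lie opposite exons of Hmgxb3. The sources used here do not state whether counting used strand, and reads from that stretch cannot be assigned. Adgre1 (13733, chromosome 17, 57358581 to 57483529, plus strand) had 31, 0 and 0 counts in ILC3, or 1.12 CPM in replicate 1, and was 128 and 58.9 CPM in CD4 T. The mean difference of 251-fold rests on those 31 counts of 1 library. Mpeg1 (17476, chromosome 19, 12460770 to 12465285, plus strand), whose product pierces engulfed bacteria, was 2.88, 4.605 and 2.98 CPM in ILC3, against 1172 and 519 CPM in CD4 T, a 243-fold difference with a gap of 113 times between the nearest libraries. Leaving out CD4 T replicate 1 moved the log2 (ILC3 over CD4 T) from -7.92 to -7.21 for Mpeg1, from -7.97 to -7.30 for Adgre1 and from -6.65 to -5.98 for Csf1r. For Csf1r it was -7.80 without ILC3 replicate 3, and for Adgre1 -7.38 without ILC3 replicate 2 or 3.

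Mpeg1, Adgre1 and Csf1r moved alike between the CD4 T libraries. Replicate 2 stood at 0.443 of replicate 1 for Mpeg1, 0.461 for Adgre1 and 0.459 for Csf1r. Per length Adgre1 and Csf1r were also of like abundance there, at 28.8 ± 15.03 and 28.04 ± 14.7 CPM per kilobase.

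Of 17 ligands, partners and factors of the Csf1r axis 15 passed the filter, with 9 lower, 1 higher and 5 not called (median log2 -2.32). Tyrobp, which encodes the adaptor DAP12 of myeloid and natural killer receptors, was 151 ± 27.9 CPM in ILC3 against 3269 ± 565 CPM (log2 -4.44, SE 0.337, edgeR adjusted p = 0.00155). The dendritic cell growth factor receptor gene Flt3 was lower by a log2 of -4.52 (SE 0.459, edgeR adjusted p = 0.00367) and the transcription factor gene Zeb2 by -3.76 (SE 0.396, edgeR adjusted p = 0.00412). Klf4, a transcription factor of monocytes and other cells, was higher in ILC3, at 64.7 ± 4.89 against 21.7 ± 4.68 CPM (log2 1.57, SE 0.308, edgeR adjusted p = 0.0238). That call was lost without ILC3 replicates 1, 2 and 3 (0.0797, 0.0737 and 0.0704) and with library size alone (0.113). The number lower was 5 without ILC3 replicate 1, ILC3 replicate 3 or CD4 T replicate 1. The ligands themselves were scarce: Csf1 had 38, 2 and 8 counts in ILC3 against 0 and 1 in CD4 T, and Il34 had 2 counts in CD4 T replicate 2 and none elsewhere.

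Mertk (NCBI gene 17289, chromosome 2, 128698915 to 128803162, plus strand) stood apart from the rest. It had no count in the ILC3 libraries, 2 counts in CD4 T replicate 1 and 126 counts in CD4 T replicate 2, or 0.0791 and 6.81 CPM, and it was the member that did not pass the filter on low counts. The ratio of replicate 2 to replicate 1 was 86.1 (exact 95% counting interval 23.3 to 718). Over the group CD4 T was at least 59.0-fold above the ILC3 floor, which rests on replicate 2, since replicate 1 held fewer counts than the floor of 3. C1qb, Cd68 and Lyz2 were lower in CD4 T replicate 1 as well, at 0.277, 0.333 and 0.414 of replicate 2, while the other 6 members there were at 0.797 to 2.26 times replicate 2.

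Mertk binds dying cells through the bridging proteins Gas6 and protein S, beside the sister receptors Axl and Tyro3. Among 18 genes of such uptake, 16 passed the filter, 6 were lower in ILC3, 2 were higher and 8 were not called (median log2 -1.44). Axl was 0.591 ± 0.209 CPM in ILC3 against 49.2 ± 29.0 CPM (log2 -6.36, SE 0.615, edgeR adjusted p = 0.0032), and unlike Mertk it was the higher in CD4 T replicate 1, at 69.8 against 28.7 CPM. The phosphatidylserine receptor genes Timd4 and Havcr1 were lower as well: Timd4 had 1 count over ILC3 and was 12.98 and 19.6 CPM in CD4 T (ratio 956, counting interval 171 to 37803, edgeR adjusted p = 0.00515). Havcr1 had no count in ILC3 and was 26.6 and 21.5 CPM in CD4 T, at least 494-fold lower in ILC3 (edgeR adjusted p = 0.00702). Anxa1, which encodes the phospholipid-binding annexin A1, was higher in ILC3, at 71.6 ± 19.6 against 6.98 ± 3.89 CPM (log2 3.36, SE 0.509, edgeR adjusted p = 0.0117). The number lower was 3 without any 1 of the ILC3 replicates and without CD4 T replicate 1. Without CD4 T replicate 1 the log2 of Axl was -5.57, and without CD4 T replicate 2 that of Anxa1 was 4.09. The single Timd4 count was in ILC3 replicate 1, without which no count was left.

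Lyz2 (NCBI gene 17105, chromosome 10, 117277541 to 117282272, minus strand) encodes lysozyme M of macrophages, monocytes and neutrophils. Its neighbour Lyz1 (17110, 117287795 to 117292868) encodes lysozyme P, known from Paneth cells of the gut epithelium. The coding sequences are of the same length, 444 bases, and differ at 22 of them, an identity of 95.045%. The first 90 coding bases in the GENCODE M21 transcripts are shown because the levels of both genes rest on telling their reads apart; capitals mark the 7 bases that differ.
Lyz2: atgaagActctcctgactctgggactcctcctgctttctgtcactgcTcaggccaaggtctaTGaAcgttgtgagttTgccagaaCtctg
Lyz1: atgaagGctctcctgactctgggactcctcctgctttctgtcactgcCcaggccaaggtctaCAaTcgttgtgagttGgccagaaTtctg
Of all 1267 windows of 50 bases in the Lyz2 transcript, 195, or 15.4%, were found letter for letter in Lyz1. The upstream windows of the pair are alike too and each hold ACTTCCT, in capitals, starting 100 bases before the start site, at chr10:117282273-117282522 and chr10:117292869-117293118 (GRCm38.p6, minus strand).
Lyz2 upstream: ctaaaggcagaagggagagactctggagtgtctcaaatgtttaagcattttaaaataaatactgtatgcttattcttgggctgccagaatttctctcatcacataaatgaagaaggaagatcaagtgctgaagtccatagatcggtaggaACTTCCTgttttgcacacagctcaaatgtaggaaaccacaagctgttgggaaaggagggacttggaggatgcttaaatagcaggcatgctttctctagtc
Lyz1 upstream: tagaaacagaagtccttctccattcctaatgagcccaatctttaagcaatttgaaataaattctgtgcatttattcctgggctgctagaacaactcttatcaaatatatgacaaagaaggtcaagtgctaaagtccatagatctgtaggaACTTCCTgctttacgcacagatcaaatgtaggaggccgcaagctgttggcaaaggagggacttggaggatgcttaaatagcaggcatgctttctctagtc
How the counting treated reads that fit both genes was not stated, so both levels are uncertain to that extent.

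Lyz2 was 99.5, 132 and 140 CPM in ILC3 replicates 1 to 3 and 657 and 1590 CPM in CD4 T replicates 1 and 2. The mean difference was 9.06-fold, and per length Lyz2 was the most abundant member in ILC3, at 94.2 ± 16.4 CPM per kilobase. Lyz1 was 4.57, 0.895 and 0.467 CPM in ILC3, against 11.5 CPM in CD4 T replicate 1, but 1878 CPM in CD4 T replicate 2, above Lyz2 in that library. The Paneth cell defensin gene Defa24 was 55.3 CPM in CD4 T replicate 1 and 21948 CPM in replicate 2, so epithelial transcripts were high in the same library as Lyz2. Their part in the Lyz2 level was not tested. Without CD4 T replicate 2 the log2 of Lyz2 (ILC3 over CD4 T) was -2.39, in place of -3.18.

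Cd68 (NCBI gene 12514, chromosome 11, 69664213 to 69666170, minus strand) encodes a sialomucin of the lysosome membrane, related to the LAMP proteins. It was 7.997, 12.4 and 3.97 CPM in ILC3 replicates 1 to 3 and 53.0 and 159 CPM in CD4 T replicates 1 and 2. The means differed 13.1-fold, and CD4 T replicate 2 was 3.00 times replicate 1. Without CD4 T replicate 2 the log2 was -2.69, in place of -3.71. Its ILC3 libraries were also spread, with replicate 2 at 3.13 times replicate 3.

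Among 11 relatives of the lysozyme, Cd68, Adgre1 and Csf1r families, 8 passed the filter, with 3 lower in ILC3, 2 higher and 3 not called (median log2 -0.34). Adgre4 and Adgre5, adhesion receptors of the F4/80 family, were lower: Adgre4 had no count in ILC3 and was 32.5 and 19.9 CPM in CD4 T, at least 549-fold lower (edgeR adjusted p = 0.00716), and Adgre5, which encodes CD97, was 38.8 ± 13.5 against 256 ± 89.7 CPM (log2 -2.72, SE 0.404, edgeR adjusted p = 0.0112). Kit, the stem cell factor receptor and a relative of Csf1r, was higher in ILC3, at 274 ± 50.1 against 15.5 ± 2.17 CPM (log2 4.15, SE 0.351, edgeR adjusted p = 0.00215). Pdgfrb, another such kinase, was 4.83, 4.22 and 7.41 CPM in ILC3 with 0 and 1 counts in CD4 T (edgeR adjusted p = 0.0273). Its call was lost without ILC3 replicates 1, 2 and 3 (0.0734, 0.07 and 0.0695) and without CD4 T replicate 1 (0.0718). Lyz1 was the remaining gene called lower (edgeR adjusted p = 0.0395), at 11.5 and 1878 CPM in CD4 T replicates 1 and 2. Its call was lost with limma-voom (limma-voom adjusted p = 0.391). With 1 library left out its log2 ran from -10.4 to -2.51. The LAMP genes Lamp1 and Lamp2 were abundant in both groups, and neither was called. Lamp2 was 145, 152 and 135 CPM in ILC3, against 144 and 178 CPM in CD4 T.

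Beyond the members, a list of 22 other macrophage genes had 17 that passed the filter. Of these 11 were lower in ILC3, 0 were higher at an adjusted p under 0.05 and 6 were not called (median log2 -4.90). Ms4a7, a membrane protein gene of macrophages, was 21.1 ± 7.11 CPM in ILC3 against 408 ± 15.2 CPM (log2 -4.27, SE 0.363, edgeR adjusted p = 0.00216). Aif1, which encodes the actin-binding protein IBA1, was 40.4 ± 11.4 and 599.7 ± 215 CPM (log2 -3.89, SE 0.4, edgeR adjusted p = 0.00373). The fractalkine receptor gene Cx3cr1 was 0.566 ± 0.218 and 32.9 ± 22.5 CPM (log2 -5.86, SE 0.698, edgeR adjusted p = 0.00607), and its log2 was -4.89 without CD4 T replicate 1. Timd4 was the fourth gene of this list by p. The number lower was 7 without ILC3 replicate 1 and 6 without CD4 T replicate 1.

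Some defining genes of resident macrophages were absent or scarce in a CD4 T library. Cd5l, Vsig4 and Marco, genes known from liver, spleen and peritoneal macrophages, had no count in any library. Siglec1, which encodes CD169, had 5 and 16 counts in CD4 T replicates 1 and 2 and Slc40a1, the iron exporter ferroportin, 0 and 146. By contrast, the high affinity Fc receptor gene Fcgr1, which encodes CD64, was present in both CD4 T libraries, at 30.3 and 12.9 CPM. In ILC3 Fcgr1 was 1.77, 0.32 and 0 CPM, and it was not called (log2 -4.90, edgeR adjusted p = 0.0633). These genes were named after their values were seen.

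**Figure D3:**
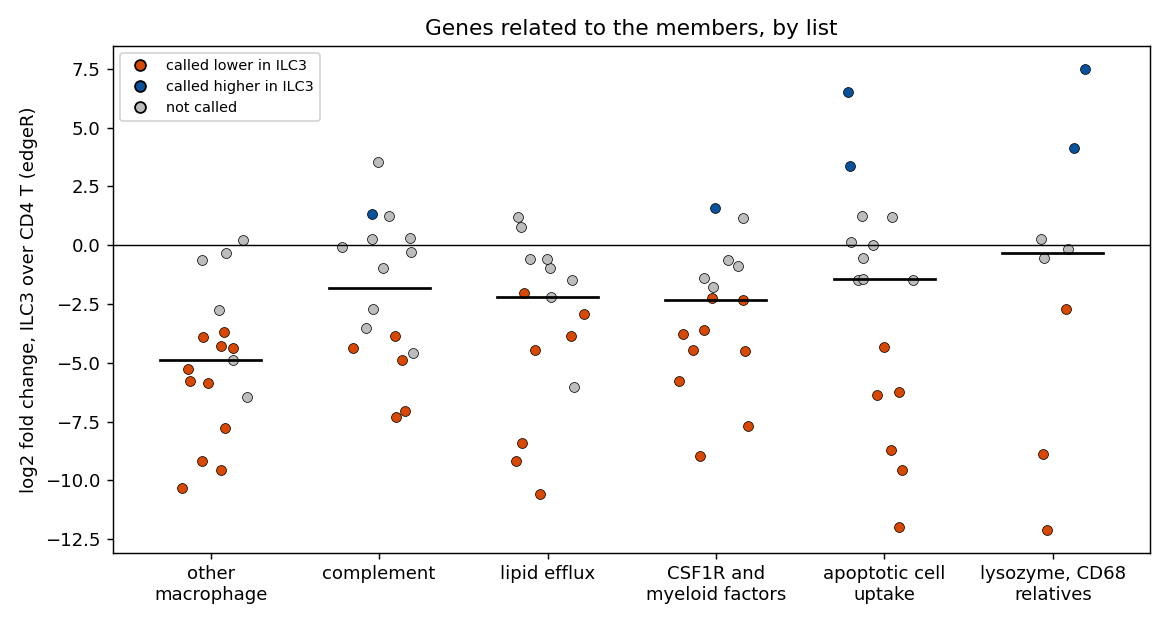
Log2 fold change of ILC3 over CD4 T from edgeR for each tested gene of the 6 lists related to the members, coloured by call, with a bar at each list's median; negative is lower in ILC3, and values of genes without counts in a group are fitted, not measured, sizes. Medians run from -4.90 for the other macrophage genes to -0.34 for the relatives of the lysozyme, Cd68, Adgre1 and Csf1r families.

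Over the 6 lists together, 98 distinct genes were listed and 80 tested, of which 37 were lower in ILC3, 6 higher and 37 not called. That is 46.2% lower and 7.50% higher, beside 7.21% and 6.46% of all tested genes. The number lower was 21, 23 and 23 without ILC3 replicates 1, 2 and 3 and 19 without CD4 T replicate 1, and the number higher was 3 without any 1 of the ILC3 replicates. These lists were drawn up with earlier results of these data known.

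The members split when the CD4 T libraries were set against each other. C1qb, Lyz2, Cd68 and Mertk were more than 2-fold higher in replicate 2, as were 23.6% of 12519 genes. Mpeg1, Adgre1 and Csf1r were more than 2-fold lower there, as were 19.7% of the 12519. C1qa, C1qc and Apoe lay within 2-fold. The median ratio of replicate 2 to replicate 1 was 1.08 over the 10 members and 0.964 over the 11704 tested genes with counts in both. With 1 library a side this comparison has no replicate check.

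The summed level of the members in replicate 2 was 1.17 times that in replicate 1. It was 0.973 times without Lyz2 and 0.751 times without Lyz2 and Apoe. Of the 22 other macrophage genes, 19 had counts in CD4 T, with 9 more than 2-fold lower in replicate 2 and 3 more than 2-fold higher. Their summed level in replicate 2 was 0.626 of that in replicate 1. The sum of the plasmacytoid dendritic cell markers was 0.823 of it and that of the conventional dendritic cell markers 0.859. The T cell markers stood at 2.13 and the epithelial markers at 253 times. Defa24 made up 55.3 of the 86.9 CPM of the epithelial sum in replicate 1 and 21948 of 22021 CPM in replicate 2. By gene, 8 of the 10 epithelial markers were more than 2-fold higher in replicate 2. The part of these other cell types in the split of the members was not tested.

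**Figure D4:**
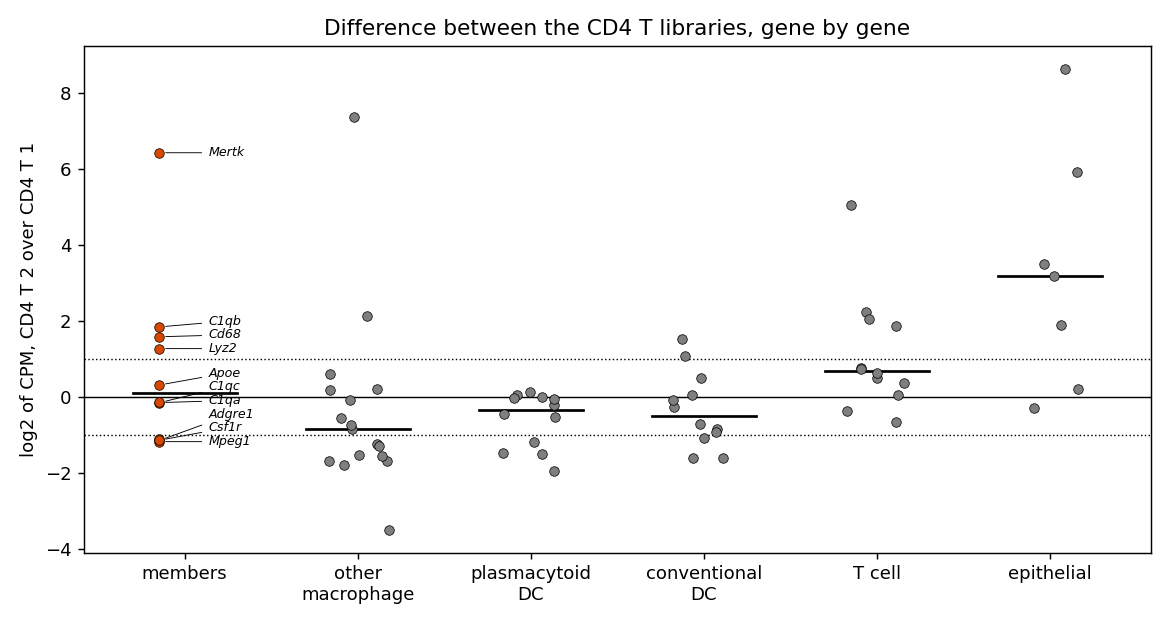
Log2 ratio of CPM in CD4 T replicate 2 over replicate 1 for each gene with counts in both libraries, by list, with a bar at each median and dotted lines at 2-fold. Mpeg1, Adgre1 and Csf1r lie together below the lower line, C1qa, C1qc and Apoe near 0, and Mertk far above.

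Per length the order in CD4 T was Apoe, Lyz2, C1qc, Mpeg1, C1qb, C1qa, Cd68, Adgre1, Csf1r and Mertk. Apoe and Lyz2 overlapped between libraries, as did C1qc's followers Mpeg1, C1qb and C1qa in turn, and Adgre1 with Csf1r. In ILC3 the order was Lyz2, Apoe, C1qb, C1qc, C1qa, Cd68, Mpeg1, Csf1r, Adgre1 and Mertk, where C1qc overlapped C1qa, C1qa overlapped Cd68, and Csf1r overlapped Adgre1. Mpeg1 had the fourth place in CD4 T, at 195 ± 107 CPM per kilobase, and the seventh in ILC3, at 0.805 ± 0.223.

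Markers of other cells moved with the members. Of 12 plasmacytoid dendritic cell markers 11 were lower in ILC3 (6 without CD4 T replicate 1), and all 12 had counts in CD4 T. Their summed level was 270.3 to 683 CPM in ILC3, against 4152 to 5042 CPM in CD4 T. Ly6d, a surface protein of such cells and of B lineage cells, led that list in both groups, at 86.9, 422 and 387 CPM in ILC3, against 1727 and 1805 CPM in CD4 T. The conventional dendritic cell list had 6 of 12 lower and 2 higher, with sums of 233 to 265 CPM and 773 to 901 CPM. Over all tested genes 7.21% were called lower and 6.46% higher. Cd209a led it in CD4 T at 116 and 244 CPM, and the chemokine receptor gene Ccr7 in ILC3 at 120.4, 99.96 and 103 CPM.

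Monocyte markers summed to 77.2 to 178 CPM in ILC3, against 815 to 828 CPM in CD4 T. Of 7 tested, 3 were lower, beside 7.21% of all tested genes, and Vcan was at 0 in CD4 T. Ly6c2 led them in CD4 T, at 334 and 303 CPM, and Ccr2 in ILC3, at 69.9, 76.4 and 34.4 CPM. Neutrophil markers were near absent, at 0.144 to 1.11 CPM in ILC3, against 3.14 to 10.3 CPM in CD4 T. S100a8, S100a9, Cxcr2, Elane, Camp and Ly6g were at 0 in every library. Csf3r led that list in CD4 T at 5.58 and 2.11 CPM, and Retnlg in ILC3 at 0, 1.02 and 1.11 CPM. Dendritic cells and monocytes are known to express several of the 10 genes, Csf1r, Mpeg1 and Lyz2 among them, and the part of each cell type in the members' levels was not tested.

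The remaining lists differed among themselves. T cell markers lay on the CD4 T side as well. Of 12 tested, 7 were lower in ILC3 and 0 higher (median log2 -3.94), beside 7.21% and 6.46% of all tested genes. These markers summed to 995 to 1815 CPM in ILC3, against 1911 to 4073 CPM in CD4 T, led by Icos in ILC3 and Cd3g in CD4 T. ILC3 markers summed to 30971 to 35277 CPM in ILC3, against 1107 to 2155 CPM in CD4 T, led by Il22 in ILC3 and Id2 in CD4 T. B and plasma cell markers overlapped between groups, at 18043 to 100625 and 20985 to 34343 CPM, nearly all from the joining chain gene Jchain. Mast cell, basophil and eosinophil markers were 18.1, 82.0 and 547 CPM in ILC3, led by the mast cell protease gene Cma1 in replicate 3, and 20.9 and 11.1 CPM in CD4 T, led by Prg2. Epithelial markers summed to 12.3 to 36.01 CPM in ILC3, and to 86.9 and 22021 CPM in CD4 T replicates 1 and 2. Defa24 led them, and it made up nearly all of the sum in CD4 T replicate 2. Stromal and endothelial markers, led by Pecam1, were 54.2 to 68.5 CPM in ILC3, against 37.0 to 44.2 CPM in CD4 T.

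**Figure D5:**
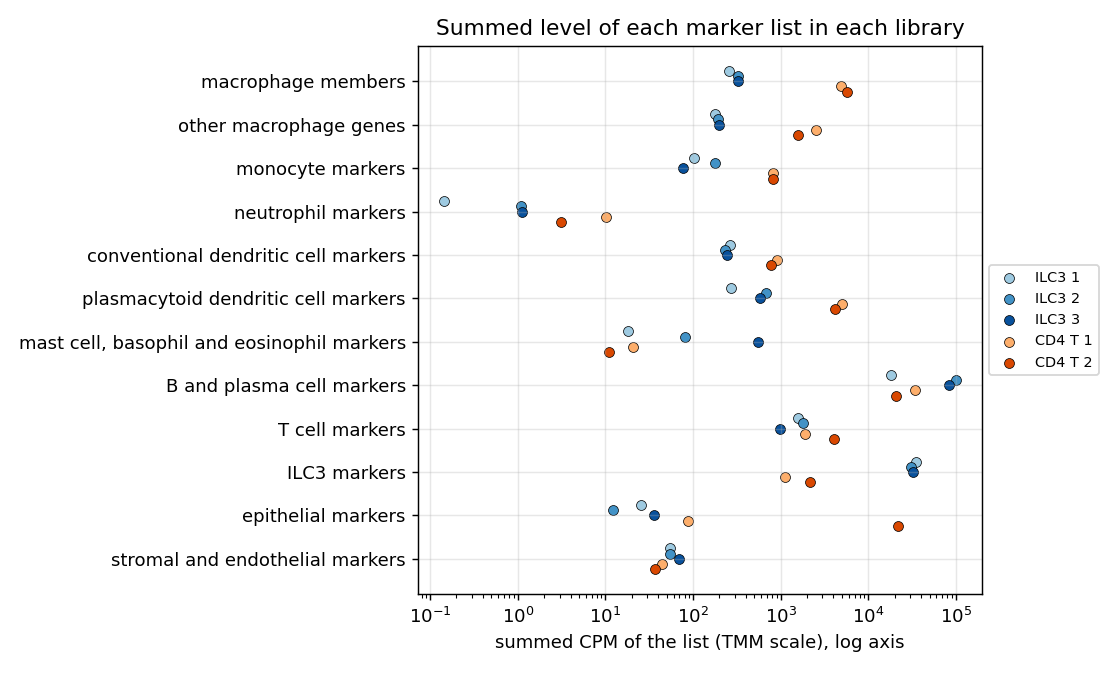
Summed CPM of each marker list in each library on a log axis, with a point per library. The macrophage members lie at 258 to 330 CPM in ILC3, against 4918 to 5734 CPM in CD4 T. The epithelial list is high in CD4 T replicate 2, nearly all from Defa24.

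Genes nearest in pattern to the mean of the 9 members that passed the filter were sought. The 5537 candidates had at least 20 CPM in the higher group. Nearness was the root mean square difference of centred log2 CPM over the 5 libraries. The nearest genes were, in order, Upb1 at 0.30, Pkib at 0.35, Ccl4 at 0.38, Cxcl16 at 0.40, Tyrobp at 0.41, Ptger4 at 0.42, Pla2g7 at 0.44, Syk at 0.46, Ccl5 at 0.47 and Ms4a7 at 0.47. Among the 9 members, C1qc at 0.26 lay closest to their own mean, followed by Apoe at 0.48 and C1qa at 0.50, and Adgre1 lay farthest at 2.20. Mertk did not pass the filter and was not placed. The chemokine genes Ccl4 and Ccl5 were 1444 and 884 CPM and 452 and 677 CPM in CD4 T replicates 1 and 2. Their ILC3 levels were 45.5, 38.1 and 27.7 CPM and 16.8, 10.2 and 7.82 CPM.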

How the data were processed

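Full-length cDNA was made from sorted cells with the SMARTer Ultra Low Input kit, version 4, per the labels' protocols. The authors deposited whole-number counts per NCBI gene with no normalization. CASAVA 1.8.2, STAR 2.3.0 and build mm10 were used, per the submitters' processing notes. For the counter, its annotation and its strand setting: not given in the sources used here. Of 27179 genes, 25275 were matched to RefSeq for GRCm38.p6. Exon lengths came from GENCODE M21 and promoters from RefSeq.

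The test was that of edgeR 4.0.16 under R 4.3.3 (filterByExpr by group, TMM, quasi-likelihood F test, no covariate), with 12747 genes tested and p-values adjusted by Benjamini-Hochberg over all of them. Calls need an adjusted p under 0.05. Log2 fold changes are ILC3 over CD4 T, and the standard error (SE) is the log2 fold change over the square root of F. Folds of the 10 members are ratios of group means. For genes without counts in a group the floor is 3 counts over its libraries, and intervals are exact at 95%. The fit was tested on simulated data.

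The members and lists were chosen with earlier results of these data known. The rule for named genes took the members, genes of the sort, up to 4 called genes with the smallest p per related list with both directions where called, the gene with the highest level in each group per marker list, and the 10 nearest genes in pattern. Some genes the rule names are not reported here. Other genes were named after their values were seen. The alternatives were other scalings and filters, DESeq2 1.42.0, limma-voom (limma 3.58.1), each library left out, and a replicate block.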

Additional observations from a re-analysis of the deposited data

How the results depend on the processing

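The direction of the members is set by how they were chosen, so their alternatives bear on size alone. Adgre1 gave no fold without ILC3 replicate 1. The log2 of C1qb ran from -3.68 to -1.82 (nearest to 0 without CD4 T replicate 2) and that of Csf1r from -7.80 to -5.98. With library size alone the median of all tested genes was -0.59 in place of -0.10, and the members summed to 264 CPM in ILC3, against 6588 CPM in CD4 T. Leaving out 1 library gave sums of 289 to 322 CPM and 4646 to 5724 CPM. The sums were 181 and 4203 CPM leaving out Lyz2, and 64.7 and 2092 CPM leaving out Lyz2 and Apoe, both chosen after seeing the data.

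Over all genes 919 were lower and 824 higher. They were 1491 and 384 with library size alone, 1858 and 1914 with the DESeq2 Wald test and 1402 and 1317 with limma-voom, and without a filter 1250 were higher. Leaving out 1 library gave 306 to 960 lower and 269 to 1712 higher; where 1 CD4 T library remained, it was assumed to vary like ILC3. For the related lists these ranges were 19 to 30 lower and 3 to 7 higher. The cause of these shifts was not tested, though fewer libraries entered the last fits.

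Whether the replicate numbers pair the libraries is not known. Same-numbered deviations from the group means correlated at -0.02 and -0.03. The deviations of the 2 CD4 T libraries mirror each other, so these values cannot decide it. With a replicate block 305 genes were lower and 215 higher, and 22 and 3 in the related lists. Among the apolipoprotein and lipid efflux partners 1 gene was then lower. Calls lost with the block were those of Apoc2 (edgeR adjusted p = 0.0666), Abca1 (0.0888), Scarb1 (0.0785), Cr1l (0.165), Klf4 (0.108) and Pdgfrb (0.1055), among the related genes named by rule. Depth limits what a count of 0 says of Mertk in ILC3.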
